A study of Mus musculus with 56 samples.

Results

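Regulatory T cells (Tregs) of visceral adipose tissue (VAT) were compared with Tregs of the spleen after long feeding of a diet abbreviated HFD in the labels, to see which tissue differences remained. The comparison held 12 of the 56 libraries of the series, chosen by title: 3 VAT and 3 spleen libraries at week 8 and 3 of each at week 16. All came from C57BL/6 mice carrying the vTreg53 T cell receptor transgene (Tg+), aged 12 weeks when the diet began. Clonotype-positive Tregs were sorted in 2 rounds to 1000 cells per library, and poly(A) RNA was amplified and sequenced. The same clonotype selection applied to every library, so the cells stand for Tregs of 1 receptor and not for all Tregs of either tissue. For reference, 11 libraries of the same genotype on the diet labelled NCD were used (6 spleen and 5 VAT, weeks 8 and 16), and 6 libraries of week 0 (3 of each tissue). The labels do not say whether numbered replicates are separate mice, so p-values measure the spread between libraries, which may be partly technical. The design text calls the animals both transgenic and recipients, without describing a transfer, and the sources at hand do not state how cells were released from either tissue.

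Tregs are CD4 T cells that restrain immune responses under the control of the transcription factor FOXP3. A population of them accumulates in the visceral fat of lean mice, where PPARγ, the IL-33 receptor ST2 (encoded by Il1rl1) and GATA3 are known as hallmarks, together with the cytokine IL-10 and the growth factor amphiregulin. Tregs of spleen and lymph node instead include many resting cells, which carry the homing receptor CCR7 and the transcription factor TCF1. Loss of the fat-resident population in obesity is well described, and type I interferon has been linked to it.

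The 12 libraries held 3248686 to 5835831 counts, so that 3 counts, taken as the floor, corresponded to 0.514 to 0.924 CPM, the count scaled to a common library total. Mitochondrial genes took 0.844 to 1.37% of counts. The first principal component separated the tissues and held 45.5% of the variance. The VAT and spleen libraries numbered 1 of week 16 stood apart on the second component (10.1%), and counts that lead a paragraph were also taken without them. The 6 defining markers of the sorted cells summed to 3890 to 4720 CPM in spleen and 5770 to 6580 CPM in VAT, and Foxp3, Cd4 and Cd3e were present in every library. Although the tissue label of the spleen libraries also reads visceral adipose tissue, Pparg lay between 0 and 4.61 CPM in them and between 17.9 and 60.7 CPM in the VAT libraries, so the titles were used. Markers of macrophages (3.94 to 8.4 CPM in VAT, 4.89 to 7.83 in spleen), granulocytes (0.237 to 7.77 and 0.489 to 1.59), stromal cells (1.94 to 6.92 and 0.616 to 6.61), dendritic cells (12.3 to 29 and 9.29 to 30.2), NK and CD8 cells (56.3 to 166 and 64.5 to 141), erythroid cells (4.5 to 9.36 and 8.35 to 14.7) and adipocytes (13.3 to 26.9 and 19.7 to 32.3) summed to low levels. Adipoq, Lep and Plin1 were at or under 0.903 CPM in all 12 libraries, and most of the adipocyte sum was Lipe. The 17 B cell markers summed to 1320 to 2950 CPM in VAT and 2450 to 5500 CPM in spleen, most of it Ighm. The 9 endothelial markers summed to 78.8 to 143 CPM in VAT and 158 to 270 CPM in spleen, nearly all of it Pecam1, which T cells also express. The part of these other transcripts in any result was not tested.

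On long HFD, 3266 of 13024 tested genes (25.1%) differed between the tissues at an edgeR adjusted p under 0.05 with week as a covariate. Of these, 1748 were higher in VAT (13.4% of the genes tested) and 1518 were lower (11.7%). At least 2-fold differences were found in 797 genes higher in VAT (6.12%) and 616 lower (4.73%). Without the 2 libraries that stood apart the counts were 1896 and 1602. Under scaling by total counts alone, which moved the median of all genes by -0.15 on the log2 scale, the counts were 1240 higher and 2642 lower, so the share of calls that were higher in VAT was 53.5% or 31.9% depending on the scaling. Fitted fold changes below use the scaling factors of the main fit. Counts of long HFD calls within gene lists are to be read beside the shares of all genes tested, 13.4% higher and 11.7% lower. Levels are given as plain CPM. In bulk libraries of sorted cells, fewer cells of a kind and less RNA per cell cannot be told apart.

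A share of the genes that separated the tissues before the diets were begun was called again on long HFD. The share that was called depended on the weeks and libraries in the fit. At week 0, 1607 genes were called at least 2-fold higher in VAT and 1155 at least 2-fold lower. On long HFD, 906 of the 1607 (56.4%) were again called higher, beside 13.4% of all genes tested, and 678 of the 1155 (58.7%) were again called lower, beside 11.7%. These 906 and 678 genes made up 51.8% and 44.7% of the long HFD calls in their direction. Opposite calls were found in 2 genes and 0 genes, while 666 and 451 were not called and 33 and 26 were not tested. On long NCD, 1083 of the 1607 (67.4%) and 905 of the 1155 (78.4%) were called in the same direction, beside 19.4% and 18.3% of all genes tested. The sizes of the differences were smaller on HFD than on NCD, and smaller on both diets than at week 0. The genes were chosen by their week 0 size, so a smaller median in other libraries follows in part from that choice. The HFD and NCD medians contain no week 0 library. Across the genes higher at week 0, the median log2 fold change was 1.86 at week 0, 0.90 on long HFD and 1.35 on long NCD. Across the genes lower at week 0, it was -1.68, -0.90 and -1.50. The test of the difference between the diets, in which no week 0 library took part, called a smaller gap on HFD in 183 of 1604 genes higher in VAT at week 0 (2.64% of all genes had this call) and a larger one in 10 (2.86%). Among 1153 genes lower in VAT at week 0, it called a gap nearer to 0 in 248 (2.86% of all genes had this call) and a wider one in 1 (2.64%). Taken week by week in the 12-library fit, 45.4% and 44.9% of the week 0 genes were called in their week 0 direction at week 8, beside 9.69% and 7.78% of all genes, and 32.5% and 22.1% at week 16, beside 6.03% and 3.78%. The 6-library fit of week 16 alone, a smaller design, called 26.9% and 13.6%. In the 12-library fit the medians of the week 0 genes were 0.98 and -1.06 at week 8 and 0.86 and -0.77 at week 16. The test of the gap between the weeks called 0 of 13024 genes by edgeR. The counts of calls therefore do not show that fewer differences remained at week 16.

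**Figure D1:**
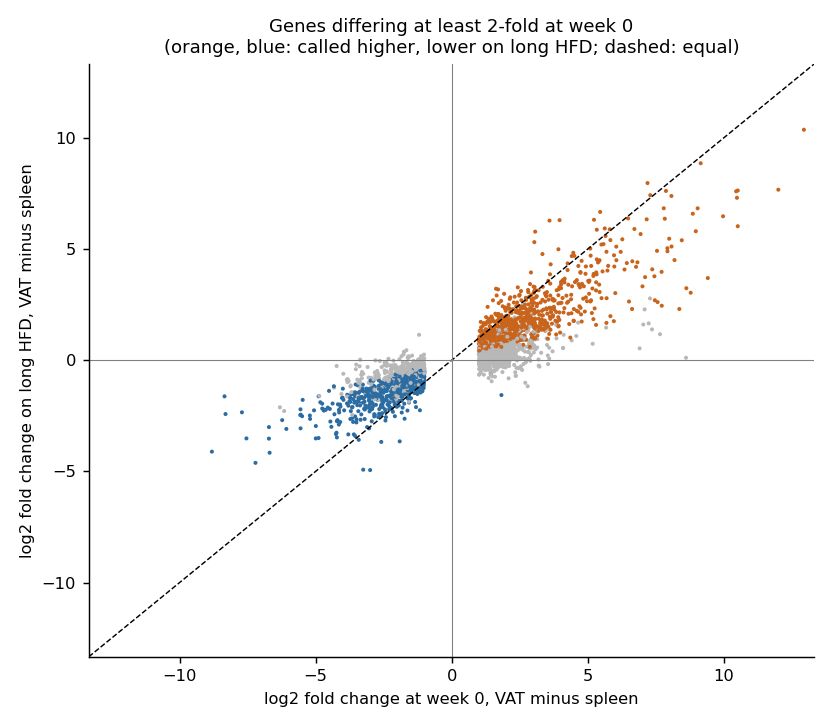
Each point is a gene called at least 2-fold different between VAT and spleen at week 0, with its log2 fold change at week 0 on the x axis and on long HFD on the y axis. Orange and blue points were called higher and lower in VAT on long HFD, grey points were not called, and the dashed line marks equal size. The genes higher in VAT at week 0 had medians of 1.86 at week 0 and 0.90 on long HFD. The genes were chosen by their week 0 size, so a smaller size in other libraries follows in part from that choice.

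The genes most closely associated with fat Tregs stayed higher in VAT on long HFD. Of the 18 genes of the VAT-Treg programme list, 16 were called higher in VAT, 0 were called lower, and only Batf and Maf were not called. The median log2 fold change was 2.41, against -0.03 over all genes tested. The list was put together with earlier results of these data known. Areg (mm10 chr5:91139599-91148432, plus strand), which encodes amphiregulin, had 495, 906 and 1231 CPM as the lowest, median and highest of the 6 VAT libraries and 4.29, 5.93 and 17.4 CPM in spleen. No VAT library came near the spleen range, and the fitted log2 fold change was 6.83 (SE 0.38, edgeR adjusted p = 5.73e-07). Il10, the gene of the suppressive cytokine IL-10, ranged from 85.4 to 811 CPM in VAT (median 286) and from 1.23 to 6.84 CPM in spleen (median 4.96), with a log2 fold change of 6.32 (SE 0.35, adjusted p = 1.86e-07). Il1rl1 (mm10 chr1:40429570-40465415, plus strand) lay at 231, 660 and 763 CPM in VAT and at 35.2, 59.8 and 72.3 CPM in spleen, a log2 fold change of 3.52 (SE 0.33, adjusted p = 2.78e-05). Its lowest VAT library, the week 16 library numbered 1, still exceeded every spleen library. Pparg (mm10 chr6:115360951-115490399, plus strand), the nuclear receptor that defines the population, was at 17.9, 49.7 and 60.7 CPM in VAT, whereas the median of the 6 spleen libraries was 0.625 CPM and lay at the floor (adjusted p = 0.000202). Its fitted fold change depended on the small counts in spleen and is therefore not given as a size.

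The chemokine gene Cxcl2 and the CREB target Areg both stand among these genes, and their promoters are shown because each holds a motif of a signal-responsive factor close to the start site. The windows cover the 250 bases before the RefSeq gene start (GRCm38.p6), read 5′ to 3′ on the gene's strand, at chr5:91139349-91139598 for Areg and chr5:90903649-90903898 for Cxcl2, both on the plus strand. Capitals mark a cAMP response element, TGACGTCA, 61 bases upstream in Areg, and 2 kB sites (GGG, any 2 bases, TTTCC), 97 and 78 bases upstream in Cxcl2. Both strands were searched, and the cAMP response element reads alike on both.
Areg: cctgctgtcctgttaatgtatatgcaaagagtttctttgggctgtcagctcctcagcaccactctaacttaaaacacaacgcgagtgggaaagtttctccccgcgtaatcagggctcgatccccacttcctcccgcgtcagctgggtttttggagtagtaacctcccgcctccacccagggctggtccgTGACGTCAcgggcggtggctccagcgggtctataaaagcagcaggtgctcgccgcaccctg
Cxcl2: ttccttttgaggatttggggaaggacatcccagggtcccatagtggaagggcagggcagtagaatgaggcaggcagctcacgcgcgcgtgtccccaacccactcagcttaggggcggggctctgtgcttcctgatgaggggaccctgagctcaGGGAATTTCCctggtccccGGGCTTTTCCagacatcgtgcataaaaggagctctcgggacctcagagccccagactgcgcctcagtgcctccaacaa
The cAMP response element occurred in 478 of 27025 windows of the same length (1.77%) and the kB site in 447 (1.65%). Among the 15 programme genes with a window, 1 held each motif. A match is a description of the letters and not of binding. Cxcl2, which encodes a neutrophil-attracting chemokine, was at 94 to 637 CPM in VAT (median 371) and at 0 to 0.793 CPM in spleen, at or under the floor, so no fold is given (adjusted p = 4.85e-08).

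Receptors and regulators of the programme followed the same order. Klrg1, an inhibitory receptor of terminally differentiated cells, was at 860, 1480 and 1984 CPM in VAT and 142, 232 and 422 CPM in spleen, and the groups did not overlap (log2 fold change 2.54, SE 0.33, adjusted p = 0.000346). Gata3 was at 647, 1209 and 1447 CPM in VAT and 273, 311 and 358 CPM in spleen (1.97, SE 0.17, adjusted p = 3.39e-06). Rora, the gene of the nuclear receptor RORα, was at 573, 719 and 843 CPM in VAT and 159, 208 and 264 CPM in spleen (1.86, SE 0.13, adjusted p = 1.07e-07). The chemokine receptor Ccr2, which binds CCL2, was at 599, 1065 and 1597 CPM in VAT and 113, 247 and 350 CPM in spleen (2.28, SE 0.33, adjusted p = 0.000697). Ccr1 showed a wider separation, from 79.3 to 403 CPM in VAT against 2.77 to 7.93 CPM in spleen. Irf4, whose product drives effector Treg differentiation, was at 63.7 to 139 CPM in VAT and 46.2 to 60.8 CPM in spleen (1.08, SE 0.17, adjusted p = 0.00018). For the 2 exceptions, Batf had a fitted log2 fold change of 0.15 (SE 0.10, adjusted p = 0.298) and Maf of 0.30 (SE 0.16, adjusted p = 0.196), with overlapping groups. Maf passed without the spleen week 16 library numbered 1 (0.48, adjusted p = 0.00301). It also passed by limma voom (adjusted p = 0.0400). By edgeR it passed with no filter (adjusted p = 0.0115), with the replicate block (0.0271), without the 2 libraries that stood apart (0.00452) and at week 8 alone (0.0162). The other alternative fits did not call Maf. The scavenger receptor Cd36, a known PPARγ target outside the list, was too low to be tested, at 0 to 0.244 CPM in spleen and 0.171 to 3.35 CPM in VAT.

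The FOXP3-dependent core was uneven. Of 16 tested Treg core genes, 9 were higher in VAT, 4 were lower and 3 were not called, beside 13.4% of all genes called higher and 11.7% lower. The median log2 fold change was 0.46. Foxp3 (mm10 chrX:7573644-7595245, plus strand) differed little in level, at 918, 1060 and 1145 CPM in VAT and 786, 849 and 911 CPM in spleen, yet the groups did not overlap (0.46, SE 0.07, adjusted p = 7.43e-05). Ctla4 (mm10 chr1:60887000-60915832, plus strand), the inhibitory counterpart of CD28, had the smallest p of all genes, at 1667, 2129 and 2384 CPM in VAT and 372, 441 and 514 CPM in spleen (2.35, SE 0.09, adjusted p = 2.76e-11). Il2ra, the high-affinity subunit of the IL-2 receptor, lay at 458, 556 and 726 CPM in VAT and 211, 239 and 287 CPM in spleen (1.39, SE 0.12, adjusted p = 6.33e-07). The costimulatory receptors Tnfrsf18 (GITR; 1.07, SE 0.12, adjusted p = 1.41e-05) and Tnfrsf4 (OX40; 1.25, SE 0.14, adjusted p = 2.33e-05) were also higher in VAT. The 4 core genes that were lower in VAT were Izumo1r, Ikzf4, Nrp1 and Gpr83. Izumo1r (mm10 chr9:14885814-14903949, minus strand), the gene of folate receptor 4, was at 256, 307 and 411 CPM in VAT and 769, 837 and 878 CPM in spleen (-1.24, SE 0.09, adjusted p = 4.34e-08). Lrrc32, whose product GARP docks latent TGF-β on the Treg surface, was not called (-0.49, SE 0.22, adjusted p = 0.133). Lrrc32 passed without the spleen week 16 library numbered 1 (-0.63, edgeR adjusted p = 0.0280) and at week 8 alone (-1.02, edgeR adjusted p = 0.00724). At week 16 alone its sign turned (0.036).

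Among 16 tested suppressive mediators, 10 were higher in VAT and 1, the ectonucleotidase gene Nt5e, was lower, with a median log2 fold change of 1.06. Beside Il10 and Areg, Itgav, an integrin subunit that takes part in TGF-β activation, was at 323 to 620 CPM in VAT and 51.3 to 112 CPM in spleen (2.68, SE 0.21, adjusted p = 1.74e-06). Of 15 coinhibitory and CD28 family genes, 8 were higher in VAT and 5 (Lag3, Btla, Cd160, Cd200 and Cd96) were lower. Icos, a costimulatory receptor, was at 634 to 828 CPM in VAT and 386 to 558 CPM in spleen (0.83, SE 0.09, adjusted p = 1.88e-06). Btla, an inhibitory receptor of resting lymphocytes, was at 42.4 to 81.2 CPM in VAT and 111 to 176 CPM in spleen (-1.29, SE 0.14, adjusted p = 2.5e-06). Neither gene overlapped between the tissues. Effector Treg transcription factors were higher in VAT in 11 of 17 and lower in 2, Id3 and Bach2. Helper lineage factors and cytokines were mostly too low to test. Of 8 tested, Gata3 and Tnf were higher, and Tnf was at 63.4 to 79.8 CPM in VAT and 24 to 52.8 CPM in spleen (1.05, SE 0.15, adjusted p = 7.4e-05).

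**Figure D2:**
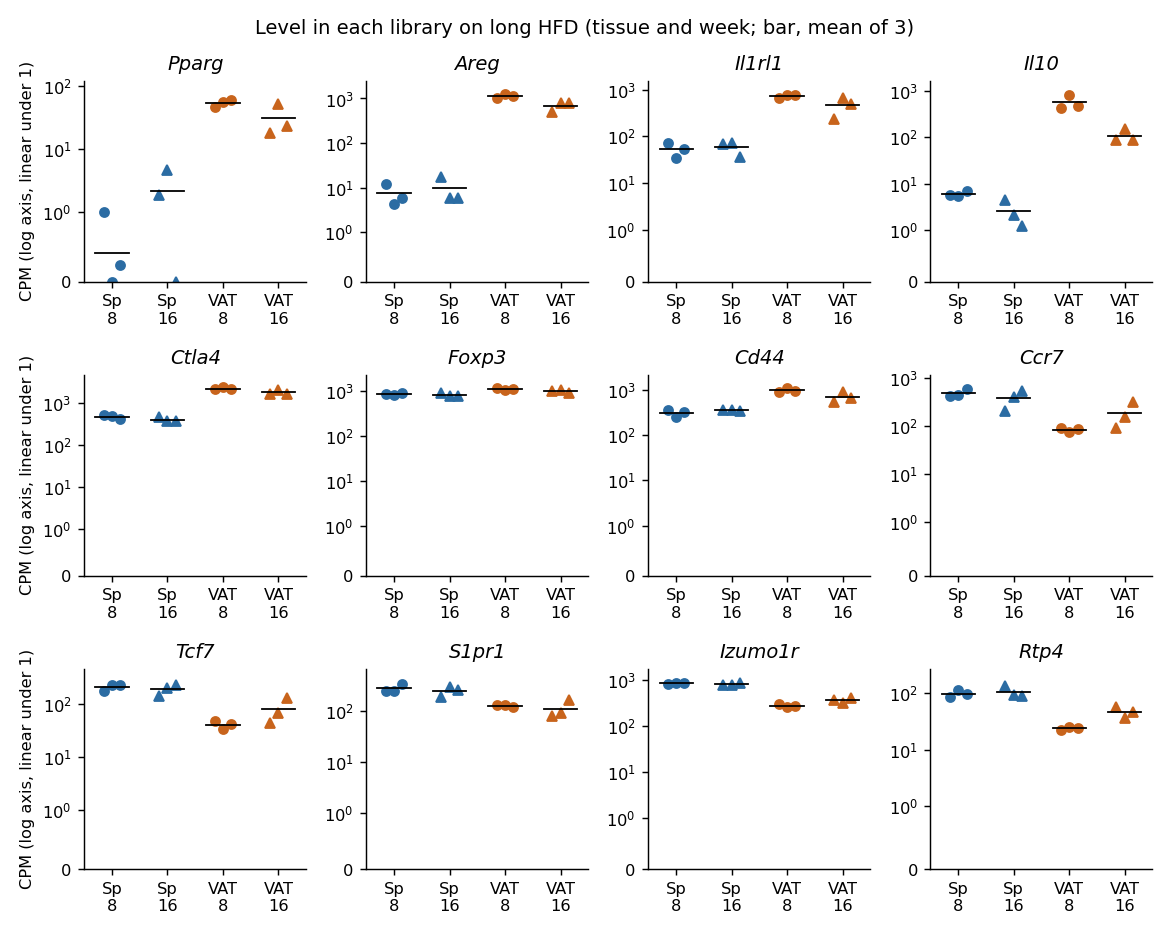
Level in CPM (log axis, linear under 1) of 12 genes in each of the 12 libraries, by tissue and week on HFD, with a bar at the mean of 3 libraries. Pparg, Areg, Il1rl1, Il10, Ctla4, Foxp3 and Cd44 are higher in all 6 VAT libraries than in any spleen library, while the VAT and spleen points of Ccr7 overlap.

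Genes of resting and lymphoid T cells ran the other way. Of 16 tested members, 12 were lower in VAT and 2 were higher, and the median log2 fold change was -1.41. Ccr7, which guides cells into lymph nodes, was at 73.8, 89.7 and 317 CPM in VAT and 201, 424 and 572 CPM in spleen (-1.60, SE 0.40, adjusted p = 0.015). The groups overlapped, because the highest VAT value, in the week 16 library numbered 3, exceeded the lowest spleen value, in the week 16 library numbered 1. Tcf7, which encodes TCF1, did not overlap, at 33.3, 45.4 and 126 CPM in VAT and 142, 208 and 228 CPM in spleen (-1.66, SE 0.28, adjusted p = 0.00122). S1pr1, the receptor that lets T cells leave lymphoid organs, was at 81.1, 126 and 162 CPM in VAT and 187, 254 and 342 CPM in spleen (-1.002, SE 0.16, adjusted p = 0.00031). The 2 members that were higher in VAT were Il7r, the IL-7 receptor gene (1.10, SE 0.16, adjusted p = 0.000235), and Ccr9, a gut-homing receptor gene (1.91, SE 0.29, adjusted p = 0.000273). Within the combined fit, 10 members were lower at week 8 and 3 at week 16, where 7.78% and 3.78% of all genes were called lower. A fit of the 6 libraries of week 16 alone called 0 members lower.

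Chemokine receptors and integrins were split. Of 17 tested genes of the list of chemokine and other migration receptors, 9 were higher in VAT and 5 (Ccr7, Ccr10, Cxcr5, S1pr1 and Gpr183) were lower. S1pr1 and Gpr183 do not encode chemokine receptors, and Ccr7 and S1pr1 also belong to the lymphoid list. Beside Ccr1 and Ccr2, Cxcr4, the receptor of CXCL12, was at 57.1 to 99.6 CPM in VAT and 14.2 to 33.9 CPM in spleen (1.84, SE 0.17, adjusted p = 4.9e-07), and Ccr8, a marker of tissue Tregs, at 204 to 301 CPM and 54.4 to 138 CPM (1.77, SE 0.21, adjusted p = 4.58e-05). Of 17 tested integrin and adhesion genes, 9 were higher and 5, among them Itga5, Itga6, Itgae and Itgal, were lower. Itga4 was at 569 to 805 CPM in VAT and 363 to 538 CPM in spleen (0.79, SE 0.08, adjusted p = 2.77e-06). Cd44, the hyaluronan receptor of antigen-experienced cells, was at 559, 910 and 1100 CPM in VAT and 253, 356 and 374 CPM in spleen (1.45, SE 0.16, adjusted p = 1.77e-05).

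**Figure D3:**
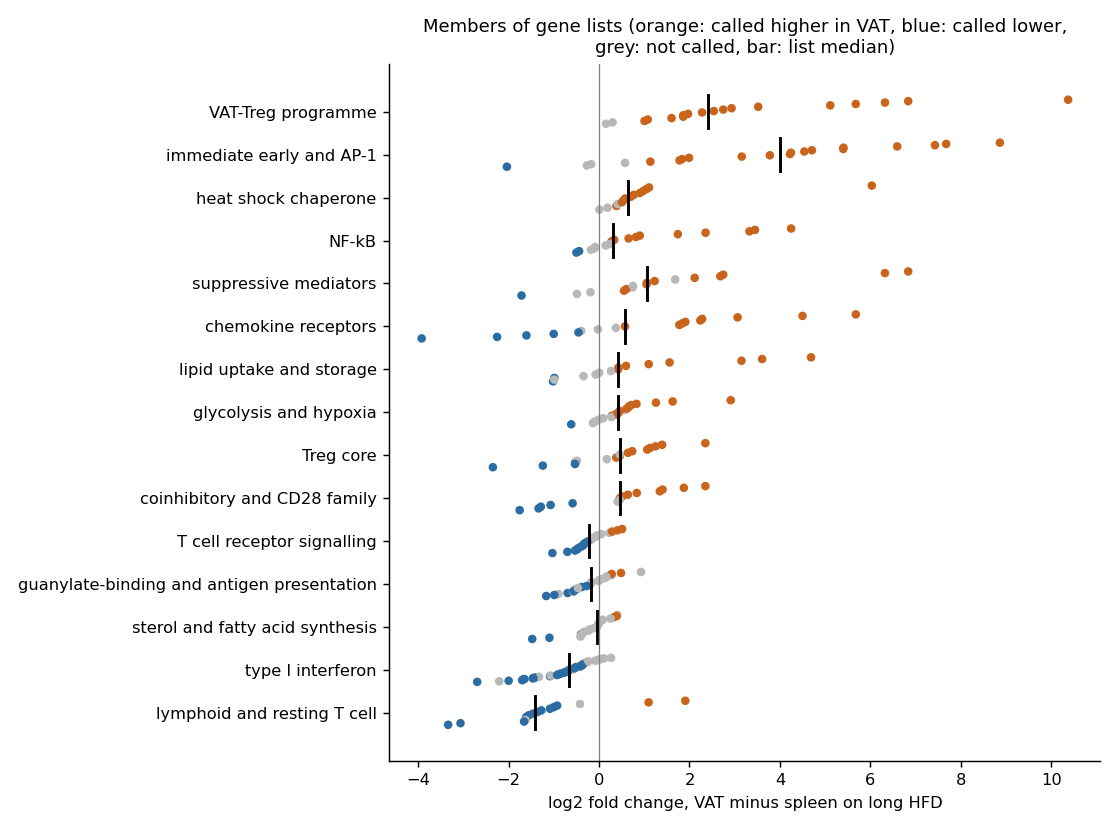
Log2 fold change, VAT minus spleen on long HFD, of each tested member of 15 gene lists, with orange points called higher in VAT, blue points called lower, grey points not called and a bar at the list median. The VAT-Treg programme (median 2.41) and the immediate early genes (median 4.00) lie to the right, and the lymphoid list (median -1.41) and the interferon list (median -0.65) to the left.

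Immediate early genes, which are transcribed within minutes of stimulation and code for AP-1 and related factors, gave the widest separation. Of 20 tested, 16 were higher in VAT, Egr2 was lower, and Egr3, Ier5 and Dusp2 were not called. The median log2 fold change was 4.00. Junb was at 4110, 8956 and 10130 CPM in VAT and 352, 494 and 543 CPM in spleen (4.22, SE 0.22, adjusted p = 1.86e-07), and again the VAT week 16 library numbered 1 was lowest in VAT without reaching the spleen range. Fosl2 lay at 287 to 534 CPM in VAT and 1.35 to 8.19 CPM in spleen (6.59, SE 0.31, adjusted p = 3.79e-08). The orphan nuclear receptors Nr4a3 (122 to 262 CPM in VAT, 4 to 10.4 CPM in spleen) and Nr4a2 (126 to 262 and 1.38 to 7.39 CPM) had log2 fold changes of 4.71 (SE 0.23, adjusted p = 2.34e-09) and 5.40 (SE 0.31, adjusted p = 8.57e-08). Heat shock chaperone genes moved with them: 11 of 14 tested were higher in VAT and 0 were lower, with a median of 0.64. Hsp90ab1 was at 2001 to 2349 CPM in VAT and 1453 to 1859 CPM in spleen (0.54, SE 0.06, adjusted p = 9.36e-06), and Hspa8 at 1185 to 1483 and 880 to 1142 CPM (0.58, SE 0.07, adjusted p = 1.86e-05). Hspa1a was at 5.12 to 26.5 CPM in VAT and at or under 0.616 CPM in spleen. The summed level of the immediate early list was 10600 to 24400 CPM in VAT and 1030 to 1710 CPM in spleen. Such genes also respond to tissue dissociation, whose steps the sources at hand do not state. The part of cell handling in these differences cannot be told apart from the tissue, since each tissue was handled as itself in all libraries.

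NF-κB genes, which encode the factor's subunits, its inhibitors and its targets, were largely higher. Of 18 tested, 10 were higher in VAT and 2 (Ltb and Tnip1) were lower, with a median log2 fold change of 0.31. Under total-count scaling the number that was lower was 4. Nfkbia, the gene of the inhibitor IκBα and itself an NF-κB target, was at 2567, 4694 and 5789 CPM in VAT and 852, 945 and 1069 CPM in spleen (2.35, SE 0.15, adjusted p = 1.95e-07). Nfkbiz, which encodes the nuclear regulator IκBζ, was at 525, 1090 and 1253 CPM in VAT and 78.3, 105 and 118 CPM in spleen (3.45, SE 0.15, adjusted p = 1.42e-09). Rel, the c-Rel subunit gene, was at 390, 561 and 788 CPM in VAT and 172, 193 and 202 CPM in spleen (1.74, SE 0.14, adjusted p = 3.65e-07). None of these groups overlapped. Ltb, the gene of lymphotoxin β, was at 562, 653 and 883 CPM in VAT and 1006, 1087 and 1180 CPM in spleen (-0.50, SE 0.08, adjusted p = 0.000241). The promoters of Nfkbia and Rel are shown because both hold a kB site and their tissue gaps differed by diet in opposite directions. The 250-base windows lie at chr12:55492648-55492897 and chr11:23770970-23771219 on the minus strand (RefSeq, GRCm38.p6), and capitals mark the reverse complement of the kB site, 29 bases upstream in Nfkbia and 91 bases upstream in Rel.
Nfkbia: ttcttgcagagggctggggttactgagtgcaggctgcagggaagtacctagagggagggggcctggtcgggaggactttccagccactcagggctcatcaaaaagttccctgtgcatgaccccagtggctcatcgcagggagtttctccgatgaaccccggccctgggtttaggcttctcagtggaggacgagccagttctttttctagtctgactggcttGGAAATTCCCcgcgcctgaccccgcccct
Rel: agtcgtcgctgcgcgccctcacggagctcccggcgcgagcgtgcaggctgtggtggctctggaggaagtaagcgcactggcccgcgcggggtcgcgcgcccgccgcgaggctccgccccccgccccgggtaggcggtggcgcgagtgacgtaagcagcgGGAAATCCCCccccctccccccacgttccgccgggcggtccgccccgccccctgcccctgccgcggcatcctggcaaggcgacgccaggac
The site was present in 5 of the 15 NF-κB genes with a window (33.3%), namely Nfkb2, Rel, Nfkbia, Tnfaip3 and Ltb, against 1.65% of all windows. Of these 5, Rel, Nfkbia and Tnfaip3 were higher in VAT, Ltb was lower and Nfkb2 was not called.

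Type I interferon genes were lower in VAT than in spleen. Of 43 tested, 27 were lower, 0 were higher and 16 were not called, with a median log2 fold change of -0.65, and without the 2 libraries that stood apart 25 were lower. Within the combined fit, 23 were lower at week 8 (median -0.73) and 12 at week 16 (median -0.46). Of all genes, 7.78% and 3.78% were called lower in these weeks. Rtp4 was at 22.2, 30.6 and 56.7 CPM in VAT and 84.8, 92.4 and 134 CPM in spleen (-1.45, SE 0.17, adjusted p = 1.28e-05). Oasl2, an oligoadenylate synthetase-like gene, was at 1.54, 4.06 and 6.39 CPM in VAT and 14.3, 17.7 and 22.5 CPM in spleen (-2.00, SE 0.26, adjusted p = 2.54e-05). Slfn1, of the schlafen family, was at 58.6, 70.5 and 98.7 CPM in VAT and 204, 273 and 284 CPM in spleen (-1.65, SE 0.12, adjusted p = 3.79e-08), and Irf7, the amplifier of the interferon response, at 22.9, 40.2 and 58.7 CPM and 76.7, 78.5 and 84.3 CPM (-0.90, SE 0.17, adjusted p = 0.000827). In all 4 genes every VAT library was below every spleen library. Ifit3 was at 1.3 to 14.9 CPM in VAT and 9.85 to 32.1 CPM in spleen (-1.39, SE 0.44, adjusted p = 0.0324), but the groups overlapped and the call was lost when any of 6 libraries was left out in turn (spleen week 8 numbers 2 and 3, spleen week 16 numbers 1 and 2, VAT week 8 numbers 1 and 3), with adjusted p between 0.0504 and 0.0672. Isg15, a ubiquitin-like effector, was at 2.31 to 6.34 CPM in VAT and 3.08 to 7.33 CPM in spleen, and no difference was detectable at this depth (-0.35, SE 0.35, adjusted p = 0.524). Ifit3 and Isg15 carry the classic interferon-stimulated response element and differ in whether they were called, so their promoters are shown (RefSeq, GRCm38.p6, chr19:34583279-34583528 on the plus strand and chr4:156200819-156201068 on the minus strand). Capitals mark the element (GAAA, any 2 bases, GAAA) or its reverse complement, 156 and 122 bases upstream in Ifit3, and 3 overlapping matches 78, 72 and 66 bases upstream in Isg15.
Ifit3: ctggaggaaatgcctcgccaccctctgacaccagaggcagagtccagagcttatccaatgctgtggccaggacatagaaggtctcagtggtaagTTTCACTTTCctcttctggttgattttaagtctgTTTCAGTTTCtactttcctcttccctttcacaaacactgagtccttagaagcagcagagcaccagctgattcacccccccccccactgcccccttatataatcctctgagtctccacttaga
Isg15: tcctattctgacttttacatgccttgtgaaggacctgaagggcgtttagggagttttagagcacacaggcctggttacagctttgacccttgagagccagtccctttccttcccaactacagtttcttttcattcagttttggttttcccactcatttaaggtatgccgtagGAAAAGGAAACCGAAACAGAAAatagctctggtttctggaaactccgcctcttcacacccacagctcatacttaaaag
The element was present in 936 of 27025 windows (3.46%) and in 13 of the 32 interferon genes with a window (40.6%). It was found in 7 of 20 interferon genes called lower in VAT (35%) and in 6 of 11 that were not called (54.5%). Near-identical copies such as Ifit3 and Ifit3b could share reads, and their values are uncertain.

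Guanylate-binding and antigen presentation genes were less uniform. Of 25 tested, 7 were lower in VAT and 2, H2-K1 and H2-D1, were higher, with a median of -0.19. Of all genes tested, 11.7% were called lower and 13.4% higher. The class I gene H2-D1 was at 6659 to 8435 CPM in VAT and 5432 to 6484 CPM in spleen (0.49, SE 0.06, adjusted p = 2.07e-05). H2-K1 had a log2 fold change of 0.28 (SE 0.06, adjusted p = 0.00159) and lost its call under total-count scaling (0.13). Gbp9 was at 76 to 120 CPM in VAT and 144 to 203 CPM in spleen (-0.69, SE 0.11, adjusted p = 0.00018). These counts rested on single libraries, since the number lower ranged from 4 (without the spleen week 8 library numbered 2) to 11 (without the VAT week 16 library numbered 1), and the number higher reached 5 without the spleen week 16 library numbered 1. The class II gene H2-Eb1, a marker of B and dendritic cells, was at 25.3 to 90.3 CPM in VAT and 0.978 to 32 CPM in spleen (2.65, SE 0.56, adjusted p = 0.00552).

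Metabolic genes separated by pathway. Of 15 tested genes of lipid uptake and storage, 8 were higher in VAT and 2, among them Lipa, were lower. Hilpda, which encodes a hypoxia-inducible lipid droplet protein, was at 190, 349 and 491 CPM in VAT and 11.7, 12.6 and 19.3 CPM in spleen (4.69, SE 0.17, adjusted p = 3e-11). Dgat1, the gene of a triglyceride-synthesizing enzyme, was at 491, 733 and 930 CPM in VAT and 45.5, 61.6 and 116 CPM in spleen (3.61, SE 0.29, adjusted p = 8.7e-06). Plin2, the gene of a lipid droplet coat protein, was at 132, 264 and 383 CPM in VAT and 19.9, 28.4 and 52.9 CPM in spleen (3.15, SE 0.34, adjusted p = 7.02e-05). In all 3 the tissues did not overlap, and the adipocyte genes Adipoq, Lep and Plin1 were at or under 0.903 CPM beside them. Fatty acid oxidation genes were higher in 9 of 20, with Echs1 lower, and a median of 0.23. Among them Cpt1a, the gate of fatty acid entry into mitochondria, was at 160 to 261 CPM in VAT and 102 to 138 CPM in spleen (0.96, SE 0.11, adjusted p = 5.86e-06), Acadl at 155 to 198 and 114 to 164 CPM (0.66, SE 0.10, adjusted p = 0.000114), and Hadh at 161 to 248 and 138 to 170 CPM (0.58, SE 0.10, adjusted p = 0.000462).

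Glycolysis and hypoxia genes were higher in VAT in 13 of 21, with the kinase gene Pdk1 lower, and a median of 0.43. Aldoa was at 735 to 948 CPM in VAT and 540 to 636 CPM in spleen (0.67, SE 0.07, adjusted p = 3.91e-06). The hypoxia-responsive genes Ndrg1 and Egln3 had log2 fold changes of 1.26 (SE 0.15, adjusted p = 9.95e-06) and 2.91 (SE 0.32, adjusted p = 2.84e-05). Sterol and fatty acid synthesis genes showed no common direction, with 2 of 21 higher (Insig1 among them), 3 lower (Fdps, Msmo1 and Scd2) and a median of -0.04. These counts lay near the shares of all genes tested, 13.4% higher and 11.7% lower. Under total-count scaling 0 were higher and 7 lower. Without the spleen week 8 library numbered 2 the counts were 0 and 4. Scd2, the gene of a stearoyl-CoA desaturase, was at 23.6 to 51.1 CPM in VAT and 92.3 to 132 CPM in spleen (-1.48, SE 0.15, adjusted p = 1.77e-06), and Fdps at 4.97 to 9.49 and 10.5 to 20.3 CPM (-1.10, SE 0.24, adjusted p = 0.00245). Sqle, of cholesterol synthesis, was not called (-0.41, SE 0.21, adjusted p = 0.165). Of 28 nuclear genes of oxidative phosphorylation 1 was higher (Uqcrc2) and 1 lower (Ndufa4), both under the shares of all genes tested.

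Genes that carry the T cell receptor signal were divided. Of 20 tested, 10 were lower in VAT, 3, among them Cd28 and Lcp2, were higher, and 7 were not called, with a median of -0.23. Cd3e, a subunit of the receptor complex, was at 187, 221 and 257 CPM in VAT and 354, 400 and 441 CPM in spleen (-0.70, SE 0.07, adjusted p = 2.37e-06). Lck, the kinase gene that starts the signal, was at 994, 1108 and 1257 CPM in VAT and 1581, 1763 and 1851 CPM in spleen (-0.48, SE 0.07, adjusted p = 4.36e-05). Cd28, the main costimulatory receptor gene, was at 592, 656 and 709 CPM in VAT and 496, 504 and 521 CPM in spleen (0.51, SE 0.07, adjusted p = 1.94e-05). All 3 separated the tissues without overlap. Of 15 IL-2 and STAT5 genes, 6 were higher and 3 (Socs1, Socs3 and Bcl2) were lower. Cish, a STAT5 target that dampens cytokine signals, was at 572 to 893 CPM in VAT and 212 to 351 CPM in spleen (1.49, SE 0.12, adjusted p = 2.66e-07), and its relative Socs2 at 67.5 to 135 and 35.7 to 56 CPM (1.13, SE 0.15, adjusted p = 3.43e-05). Of 13 TNF receptor superfamily genes, 6 were higher and 4 (Tnfrsf1a, Cd27, Cd40 and Fas) were lower. Tnfrsf10b, a death receptor gene, was at 41.2 to 65.4 CPM in VAT and 2.93 to 11.4 CPM in spleen (3.15, SE 0.28, adjusted p = 9.15e-07).

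Cell cycle genes were higher in VAT in 6 of 25, beside 13.4% of all genes, and lower in 0. The number ranged from 2 (without the spleen week 16 library numbered 2) to 7 when single libraries were left out and was 12 without the 2 libraries that stood apart. At week 0, 24 of the 25 were higher (median 1.84), and on long NCD 14 were (median 1.06), beside 22.5% and 19.4% of all genes. The median on long HFD was 0.55, and the diet comparison called a different gap in 0 of the 25. Mcm3 was at 145 to 328 CPM in VAT and 91.7 to 158 CPM in spleen (0.84, SE 0.20, adjusted p = 0.00885), and Pcna at 69.2 to 121 and 49.7 to 70.5 CPM (0.52, SE 0.14, adjusted p = 0.0105). Mki67 was not called in the main fit (0.83, SE 0.32, adjusted p = 0.0871) and passed without the spleen week 16 library numbered 1 (1.05, adjusted p = 0.0342). Mki67 also passed by DESeq2 (adjusted p = 0.0492) and limma voom (adjusted p = 0.0285). By edgeR it passed with the replicate block (adjusted p = 0.000153), without the 2 libraries that stood apart (0.000302) and at week 8 alone (0.00514). The other alternative fits did not call it. Of 77 tested cytosolic ribosomal protein genes, 7 were lower in VAT and 0 higher (median -0.23), beside 11.7% of all genes called lower. On long NCD 66 of 78 were lower (median -0.68), beside 18.3% of all genes. At week 0, 65 of 78 were lower and 1 higher (median -0.67), beside 18.6% of all genes called lower. Among marker lists of other cells, the calls were H2-Aa and H2-Eb1 higher and Ighm, Ighd and Cr2 lower of 11 tested B cell markers, Xcr1 higher of 2 dendritic cell markers, Cd8b1 higher and Klrb1c and Prf1 lower of 7 NK and CD8 markers, and Pecam1 lower as the 1 endothelial marker tested. No adipocyte (2 tested), macrophage, stromal or erythroid marker (1 tested each) was called by edgeR, and no granulocyte marker was high enough to test.

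The 24 genes with the smallest p among abundant, non-overlapping, at least 2-fold differences are given next. Beside Ctla4, Hilpda and Nfkbiz, the genes higher in VAT included Ctsh, the gene of the lysosomal protease cathepsin H (92.1 to 213 CPM in VAT, 5.54 to 13.1 CPM in spleen), the MAP kinase phosphatase Dusp4 (141 to 214 and 18.2 to 27.3 CPM), the stress-response phosphatase subunit Ppp1r15a (722 to 1463 and 23.5 to 47.9 CPM) and the salt-inducible kinase Sik1 (58.7 to 104 and 4.62 to 9.67 CPM). The transcriptional repressor Tgif1 (303 to 535 and 70 to 78.5 CPM), the transcription factor Ets2 (139 to 184 and 37.9 to 56.3 CPM), the noncoding RNA Snhg15 (209 to 345 and 17.4 to 31.3 CPM), the splicing factor Isy1 (196 to 253 and 60.6 to 76.7 CPM) and Spty2d1 completed the 12. On the other side, Dtx1, the gene of a ubiquitin ligase of the Notch pathway, was far lower in VAT, with spleen at 39.7 to 79.2 CPM against 2.55 to 6.39 CPM in VAT (-3.52, SE 0.24, adjusted p = 2.15e-08). The others lower in VAT were Slfn1, Izumo1r, Scd2, Btla, the guanine nucleotide exchange factor Plekhg2 (56.1 to 80 CPM in VAT, 173 to 206 CPM in spleen), the adaptor Lax1 (42.9 to 78.8 and 141 to 200 CPM), the tetraspanin Cd9 (8.34 to 22.7 and 52.3 to 84.9 CPM), the lipid transfer protein gene Pitpnm2 (10.7 to 29.6 and 53.3 to 68 CPM), the pseudokinase Trib2 (81.6 to 155 and 226 to 360 CPM) and the interferon-inducible Ifi213 (20.1 to 44.7 and 63.9 to 89 CPM) and Ifi214 (9.96 to 18.2 and 32 to 60 CPM). Across all 13024 genes, 631 (4.84%) had every VAT library above every spleen library and 1108 (8.51%) the reverse. Overlap was judged on plain CPM, without the scaling factors of the fit (0.915 to 0.982 in VAT, 1.04 to 1.07 in spleen). Plain CPM sets VAT lower against spleen than the fit does, which eases separation for genes lower in VAT and hinders it for genes higher.

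The tissue difference was then compared between the diets at weeks 8 and 16, in one fit of 23 libraries. The gap, VAT minus spleen, differed by diet in 806 of 14651 genes (5.5%): in 419 it was larger (more positive) on HFD (2.86%) and in 387 smaller (2.64%). Larger and smaller refer to the signed gap, so a gene lower in VAT whose gap came nearer to 0 counts as larger. Of 12857 genes tested on HFD, on NCD and between the diets, 792 had a gap that differed by diet. Among these, 760 were called on NCD with a gap nearer to 0 or turned on HFD, and 6 with a wider one. The same NCD libraries entered the NCD call and the difference between the diets. A gap nearer to 0 on HFD therefore follows in part from the choice of genes called on NCD. A further 22 were called on HFD and not on NCD, and 4 on neither. Under total-count scaling, which moved the median by 0.10, the counts of larger and smaller signed gaps were 575 and 263. The share of more positive gaps was therefore 52% or 68.6%. Within the same fit, HFD against NCD changed 1504 genes in VAT (10.3%; 838 higher on HFD, 666 lower) and 6 in spleen (0.041%), where Acot7, Batf, Cpt1a, Fam129a, Jak3 and Srgap3 were higher on HFD. On NCD alone, 5231 of 13877 genes differed between the tissues (37.7%). By week, 55 genes (0.375%) differed by diet at week 8, with 37 larger (0.253%), and 611 (4.17%) at week 16, with 318 larger (2.17%), and the difference between these counts was not tested.

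The genes with the smallest p for a larger gap on HFD were genes low in VAT whose VAT level was higher on HFD. Clec2i, which encodes a C-type lectin ligand, was at 2 to 8.96 CPM in VAT on NCD (median 3.9) and 30.1 to 84 CPM on HFD (median 46.6), while spleen lay at 99.2 to 148 CPM on NCD and 106 to 132 CPM on HFD. The gap differed by 3.61 on the log2 scale (SE 0.29, adjusted p = 1.67e-08). Ctss (mm10 chr3:95526786-95556403, plus strand), the gene of cathepsin S, was at 20.8 to 71.4 CPM in VAT on NCD and 170 to 412 CPM on HFD (2.41, SE 0.17, adjusted p = 4.71e-09), with 527 to 586 CPM in spleen on HFD. P2rx7, the ATP-gated channel gene, was at 3.2 to 21.3 CPM and 50.9 to 120 CPM (2.95, SE 0.26, adjusted p = 1.56e-07), and Cd96, a receptor of the nectin family system, at 9.94 to 25.9 and 53.8 to 139 CPM (2.50, SE 0.20, adjusted p = 1.53e-08). In each of these genes the VAT libraries of the 2 diets did not overlap and all HFD VAT libraries remained under the HFD spleen range. Izumo1r (1.49, SE 0.10, adjusted p = 2.1e-09) and Ltb (1.21, SE 0.11, adjusted p = 8.23e-08) kept the same order. Lrrc32 (mm10 chr7:98489283-98502181, plus strand) was at 10.2 to 29.5 CPM in VAT on NCD against 190 to 300 CPM in spleen. On HFD Lrrc32 was at 79.8 to 187 CPM in VAT against 145 to 272 CPM in spleen (difference of the gaps 3.09, SE 0.28, adjusted p = 1.39e-06). Its VAT and spleen ranges overlapped on HFD and did not on NCD. Pde4b, a cAMP phosphodiesterase gene, behaved likewise, at 31.4 to 52.6 CPM in VAT on NCD and 84.4 to 149 CPM on HFD beside 111 to 142 CPM in spleen (1.54, SE 0.15, adjusted p = 4.48e-07).

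**Figure D4:**
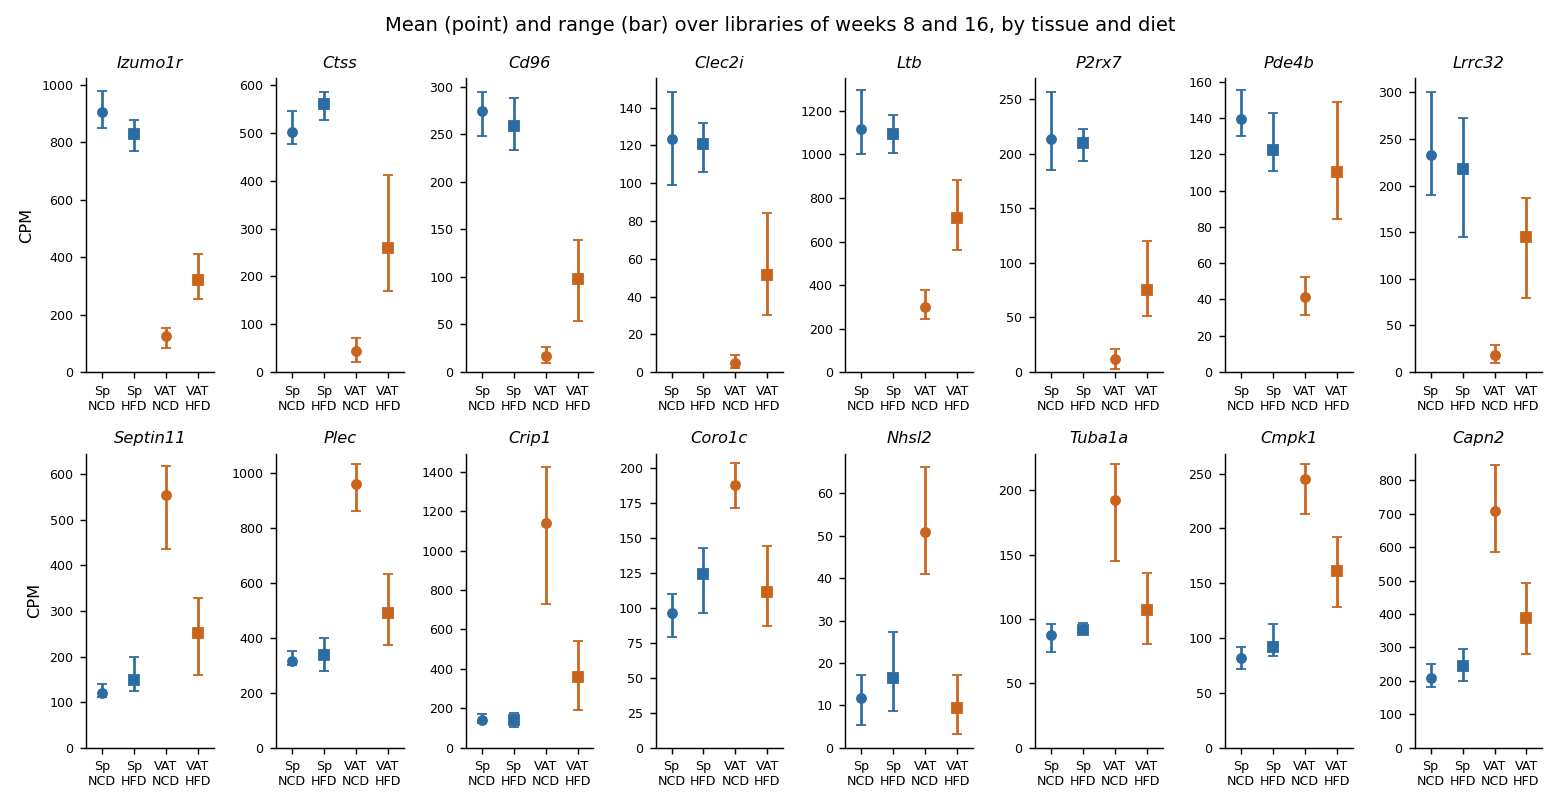
Mean CPM (point) and range over libraries of weeks 8 and 16 (bar) of 16 genes by tissue and diet, for 6 spleen NCD, 6 spleen HFD, 5 VAT NCD and 6 VAT HFD libraries. In the upper row the VAT level is higher on HFD than on NCD, in the lower row it is lower, and the spleen ranges of the 2 diets overlap in all 16 genes.

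The 8 genes with the smallest p for a smaller gap on HFD were higher in VAT than in spleen on NCD. Crip1, a LIM domain protein gene, was at 728 to 1423 CPM in VAT on NCD and 190 to 544 CPM on HFD, with 107 to 176 CPM in spleen on HFD (-1.91, SE 0.21, adjusted p = 1.54e-05). Plec, the gene of the cytolinker plectin, was at 862 to 1030 CPM and 375 to 631 CPM in VAT (-1.19, SE 0.13, adjusted p = 4.69e-06), and Septin11 at 437 to 619 and 159 to 329 CPM (-1.58, SE 0.17, adjusted p = 4.69e-06). Coro1c, an actin-binding coronin gene, was at 172 to 204 CPM in VAT on NCD and 87.3 to 145 CPM on HFD, where the spleen range was 96.7 to 143 CPM (-1.23, SE 0.16, adjusted p = 3.59e-05). Nhsl2 was at 41 to 66.1 and 3.31 to 17.1 CPM in VAT (-3.21, SE 0.41, adjusted p = 3.59e-05). Tuba1a (-1.05, SE 0.14, adjusted p = 3.59e-05), the calpain gene Capn2 (-1.23, SE 0.16, adjusted p = 4.95e-05) and the nucleotide kinase gene Cmpk1 (-0.90, SE 0.12, adjusted p = 4.92e-05) completed the 8. Of the 16 genes, Coro1c, Nhsl2, Lrrc32 and Pde4b were not called between the tissues on HFD, and the other 12 were called in the direction they had on NCD.

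For the programme genes, the diet comparison called a smaller gap in 5 of 18, beside 2.64% of all genes, and a larger one in 0. These were Il1rl1, Ccr2, Rora, Irf4 and Il9r. Il1rl1 was at 707 to 1124 CPM in VAT on NCD and 231 to 763 CPM on HFD, and in spleen at 14.2 to 49 CPM and 35.2 to 72.3 CPM (-1.61, SE 0.39, adjusted p = 0.0228). This call was lost without the VAT NCD week 16 library numbered 2 (adjusted p = 0.0564) or 3 (adjusted p = 0.0550), and with the replicate block (edgeR adjusted p = 0.0521). Ccr2 was at 1510 to 2240 and 599 to 1597 CPM in VAT (-1.64, SE 0.39, adjusted p = 0.019), a call lost without both week 16 HFD libraries numbered 1 (adjusted p = 0.0528). Rora (-1.20, SE 0.24, adjusted p = 0.00535), Irf4 (-1.38, SE 0.23, adjusted p = 0.000647) and Il9r (-1.70, SE 0.42, adjusted p = 0.0198) were the other 3. The Il9r call was lost without the VAT NCD week 16 library numbered 2 (adjusted p = 0.0509) or without both week 16 HFD libraries numbered 1 (adjusted p = 0.0656). It was also lost with no filter (edgeR adjusted p = 0.0634). The higher Il9r level in VAT on long HFD (1.01, SE 0.29, adjusted p = 0.0211) was likewise not called without the spleen week 8 library numbered 3 (adjusted p = 0.0572) or the VAT week 16 library numbered 2 (adjusted p = 0.0645). Gata3 (-0.30, SE 0.19, adjusted p = 0.449), Foxp3 (-0.16, SE 0.09, adjusted p = 0.364) and Il10 (-1.36, SE 0.48, adjusted p = 0.121) did not pass in the main fit. Il10 passed without the VAT HFD week 8 library numbered 2, by DESeq2 (adjusted p = 0.0360) and by edgeR with the replicate block (adjusted p = 0.0238). Ctla4 (-0.32, SE 0.14, adjusted p = 0.201), Klrg1 (-1.14, SE 0.50, adjusted p = 0.24) and Areg (-1.88, SE 0.63, adjusted p = 0.103) passed only when the spleen NCD week 16 library numbered 1 was left out (adjusted p = 0.0268, 0.0200 and 0.0333), among the 23 libraries left out in turn. By edgeR, Ctla4 also passed with the replicate block (adjusted p = 0.0412) and Areg in the fit of all 51 mouse libraries (0.0312). The remaining alternative fits called none of Ctla4, Klrg1 and Areg. For Pparg the sign of the difference (-0.31, SE 1.14, adjusted p = 0.939) turned without single spleen libraries, while its VAT level was 71.2 to 113 CPM on NCD and 17.9 to 60.7 CPM on HFD (diet effect in VAT -1.35, SE 0.41, adjusted p = 0.0443).

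In the lymphoid list the signed gap was larger (more positive) on HFD in 7 of 16 members (among them Ccr7, Lef1, Tcf7, Satb1, Bach2 and Klf3), beside 2.86% of all genes, and smaller in 0. Ccr7 was at 4.8 to 42.2 CPM in VAT on NCD and 73.8 to 317 CPM on HFD (2.73, SE 0.57, adjusted p = 0.00876), and Tcf7 at 5.26 to 21.6 and 33.3 to 126 CPM (2.10, SE 0.40, adjusted p = 0.00345). In both, every HFD VAT library lay above every NCD VAT library. Interferon genes showed a larger gap in 8 of 44 and a smaller one in 1 (Samd9l), among them Rtp4 (2.23, SE 0.46, adjusted p = 0.00535), Oasl2 (2.53, SE 0.43, adjusted p = 0.000573) and Slfn1 (1.10, SE 0.20, adjusted p = 0.00136), and within VAT 16 of 44 were higher on HFD and 1 lower. Guanylate-binding and antigen presentation genes showed a larger gap in 7 of 25, and within VAT 19 of 25 were higher on HFD, beside 5.72% of all genes. Ribosomal protein genes showed a larger gap in 8 of 79 and a smaller one in 0. Their median log2 fold change, HFD minus NCD, was -0.30 in spleen and 0.11 in VAT, with 0 genes called in either tissue. The Rtp4 difference kept its call with each library left out but ranged from 1.85 to 3.43, the latter without the VAT NCD week 16 library numbered 2. B cell markers moved with these lists: within VAT, 5 of 12 (Cd79b, Ighm, Ighd, H2-Aa and Cd74) were higher on HFD and 0 lower, beside 5.72% of all genes, and the gap was larger in 2 of 12 and smaller in 0. In VAT they summed to 499 to 1800 CPM on NCD and 1319 to 1814 CPM on HFD at week 8, and to 373 to 391 CPM and 1916 to 2955 CPM at week 16. Pecam1 also had a larger gap on HFD (1.72, SE 0.24, adjusted p = 0.000102). The part of B cell and endothelial transcripts in the lymphoid, interferon and antigen presentation results was not tested.

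Immediate early genes had a smaller gap on HFD in 5 of 20 (Egr1, Egr3, Ier3, Zfp36 and Btg2) and a larger one in 0, beside 2.64% and 2.86% of all genes. Junb fell short of the threshold (-0.76, SE 0.22, adjusted p = 0.052) and passed when any of 6 libraries was left out in turn. It also passed by DESeq2 (adjusted p = 0.00776) and in the edgeR fit of all 51 mouse libraries (0.0103), but not by limma voom or with the replicate block. In the NF-κB list of 18 tested genes, Rel, Relb and Ltb had a larger gap and Nfkbia a smaller one, beside the same shares of all genes. Rel was at 196 to 406 CPM in VAT on NCD and 390 to 788 CPM on HFD (1.02, SE 0.17, adjusted p = 0.000647), and at week 0 at 601 to 634 CPM. Nfkbia had a difference of -0.54 (SE 0.13, adjusted p = 0.0152), lost without the VAT NCD week 16 library numbered 3 (adjusted p = 0.0514). Both promoters hold the kB site shown with their sequences.

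Among metabolic genes, Plin2 was at 302 to 832 CPM in VAT on NCD and 132 to 383 CPM on HFD (-2.13, SE 0.35, adjusted p = 0.00109), Cpt1a differed by -0.88 (SE 0.19, adjusted p = 0.00655) with a higher spleen level on HFD, and Ndrg1 by -0.99 (SE 0.20, adjusted p = 0.00265). Sterol and fatty acid synthesis genes had a smaller gap in 5 of 21 (Srebf2, Fdft1, Sqle, Cyp51 and Nsdhl), beside 2.64% of all genes. Within VAT 16 of 21 were lower on HFD, beside 4.55% of all genes. Sqle was at 46.3 to 113 CPM in VAT on NCD and 14.3 to 40.9 CPM on HFD, beside 48.2 to 69.8 and 24.1 to 57.4 CPM in spleen (-1.33, SE 0.28, adjusted p = 0.00451). The ranges in VAT did not overlap. The adhesion gene Cd44 was at 1104 to 1881 and 559 to 1100 CPM in VAT (-1.26, SE 0.20, adjusted p = 0.000448), again without overlap. Among 12857 genes tested in all 3 fits, 4 were called in opposite directions between the tissues on the 2 diets with a gap that differed by diet. Adgre5, Galnt6 and Sema4f were among them, and were named after their values were seen.

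**Figure D5:**
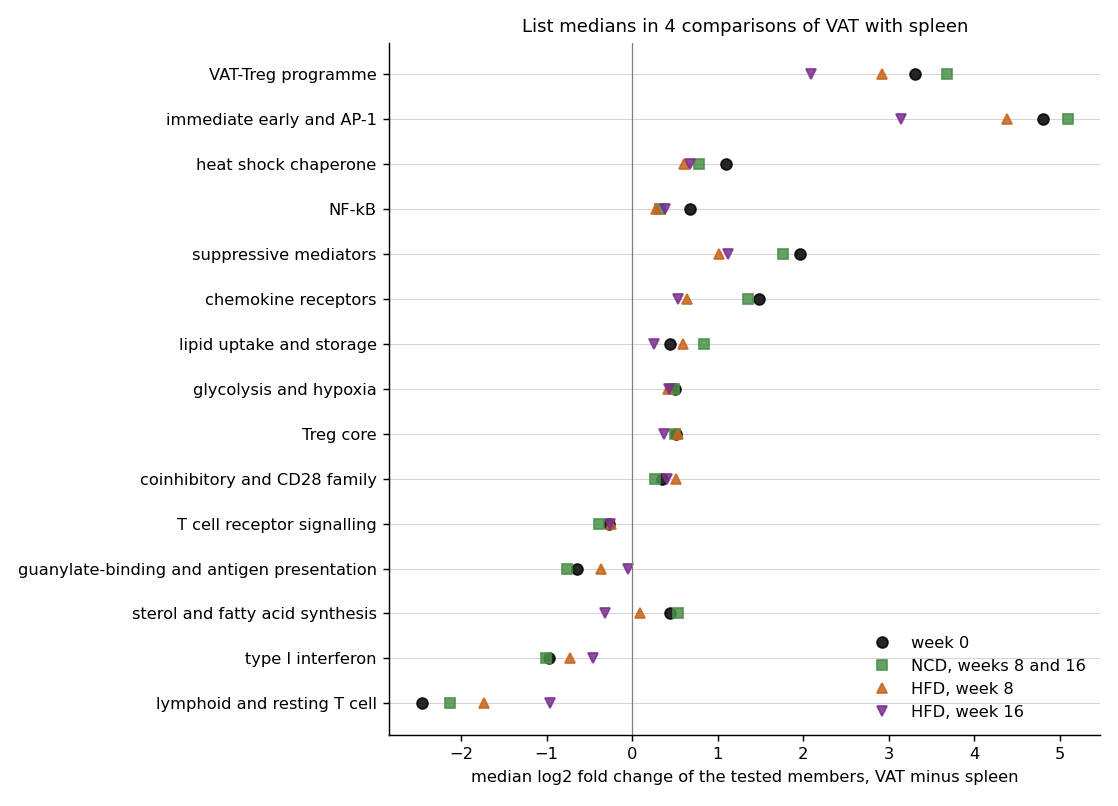
Median log2 fold change, VAT minus spleen, of the tested members of 15 lists at week 0, on NCD (weeks 8 and 16 together) and on HFD at week 8 and at week 16. The VAT-Treg programme lies at 3.31, 3.69, 2.92 and 2.10 and the lymphoid list at -2.46, -2.13, -1.74 and -0.96 in that order.

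Finally, the gap was compared between weeks 8 and 16 of HFD. By edgeR, 0 of 13024 genes differed between the weeks (0%), with 943 at an unadjusted p under 0.05, while DESeq2 called 32 (a larger VAT minus spleen difference at week 16 in 19 and a smaller one in 13) and limma voom 0. Taken week by week in the same fit, 2275 genes (17.5%) were called at week 8 and 1277 (9.8%) at week 16. The programme list had 16 members higher at week 8 (9.69% of all genes were higher) and 14 at week 16 (6.03%), with medians of 2.92 and 2.10. For Il1rl1 the log2 fold changes were 3.93 (SE 0.44) and 3.10 (SE 0.42), for Ccr2 2.89 (SE 0.38) and 1.66 (SE 0.36), and for Ctla4 2.42 (SE 0.13) and 2.29 (SE 0.13).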

How the data were processed

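The data were a table of raw read counts per gene symbol (55011 genes, 56 libraries), deposited by the authors without normalization. Per the submitters' processing notes, STAR 2.7.3a, featureCounts and the mm10 build were named. No source at hand states the annotation release, strand setting or treatment of multiply mapped reads, so counts of overlapping genes and near-identical copies are uncertain. Libraries were grouped by title.

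Tissues were compared with edgeR 4.0.16 in R 4.3.3 (quasi-likelihood test, TMM scaling, filterByExpr, robust fit). Calls used a threshold of 0.05 on p-values adjusted by Benjamini-Hochberg over all genes tested. Long HFD was fitted on 12 libraries with week as a covariate, long NCD on 11, week 0 on 6 and the diet comparison on 23. CPM is the count over the library total, and the floor was 3 counts. The code was tested on simulated data. Counting error limits low genes most.

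Genes were named by a rule. It took the 12 higher and 12 lower genes with the smallest p among called, at least 2-fold different, non-overlapping genes whose mean log2 CPM was 3 or more, then the 8 in each direction for the diet and week comparisons. Unnamed gene models, pseudogenes, ribosomal, mitochondrial and receptor segment genes were left out of these. From each list the 3 members ranked first by p were added, and so was a set of well-known genes. Some list members that the text names beyond these were chosen after their values were seen. The members and lists were chosen with earlier results of these data known.

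Alternatives were other scalings, no filter, DESeq2 1.42.0, limma 3.58.1 voom, single weeks, a fit of all 51 mouse libraries, a replicate block and each library left out. Total-count scaling and leaving out the 2 libraries that stood apart were chosen after seeing the data. Same-numbered libraries deviated together at week 16 but not at week 8, and the labels give no pairing, so the replicate block was kept as an alternative. The 5 culture libraries were not used. Some genes are not reported here.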

Additional observations from a re-analysis of the deposited data

Results flagged for a closer look

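The tissue gap (VAT minus spleen) differed between the diets, by the test of the difference itself, in 419 genes with a larger and 387 with a smaller value on HFD. The named genes among them are given here with the difference in log2 units, HFD minus NCD, all past an edgeR adjusted p of 0.05.

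For genes lower in VAT than in spleen on NCD, the gap was nearer to 0 on HFD by 3.61 in Clec2i, 3.09 in Lrrc32, 2.95 in P2rx7, 2.73 in Ccr7, 2.53 in Oasl2, 2.50 in Cd96, 2.41 in Ctss, 2.23 in Rtp4, 2.10 in Tcf7, 1.54 in Pde4b, 1.49 in Izumo1r, 1.21 in Ltb and 1.10 in Slfn1. For Rel the gap was larger by 1.02.

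A smaller gap was found in Nfkbia (-0.54), Cpt1a (-0.88), Cmpk1 (-0.90), Ndrg1 (-0.99), Tuba1a (-1.05), Plec (-1.19), Rora (-1.20), Capn2 (-1.23), Coro1c (-1.23), Cd44 (-1.26), Sqle (-1.33), Irf4 (-1.38), Septin11 (-1.58), Il1rl1 (-1.61), Ccr2 (-1.64), Il9r (-1.70), Crip1 (-1.91), Plin2 (-2.13) and Nhsl2 (-3.21). The groups of 3 libraries were too small for a check of single libraries against their own group.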

How the results depend on the processing

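Week 16 alone, with 6 libraries, gave 538 genes higher and 251 lower in VAT on long HFD, and 26.9% and 13.6% of the week 0 genes. In that fit 26 of the genes named for the tissue difference lost their call and 75 kept their direction and their side of the threshold, and 2 genes that were not called turned sign, Isg15 (0.062) and Lrrc32 (0.036). Under total-count scaling the genes lower in VAT numbered 2642 on long HFD, 4359 on long NCD and 3516 at week 0. For the gap between weeks, 94 larger and 49 smaller were called with no filter, 19 and 13 by DESeq2, and 0 and 1 in the fit of all 51 libraries. With single libraries left out, these counts ranged from 0 to 2 and from 0 to 4. Leaving out single libraries gave 1520 to 1862 genes higher and 1281 to 1598 lower on long HFD, and 312 to 471 larger and 270 to 468 smaller gaps by diet. The Pparg difference by diet, which was not called, ranged from -1.21 to 0.54 with single libraries left out, and was 0.29 without the spleen HFD week 16 library numbered 2.

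The labels do not say whether the replicate numbers pair the libraries: all 3 same-numbered correlations were over 0.1 at week 16 (0.262, 0.112 and 0.182) and none at week 8 (-0.0545, 0.0179 and -0.0765). With the replicate block, 1777 genes were higher and 1543 lower on long HFD, 391 and 414 gaps were larger and smaller by diet, 0 and 0 differed by week, 2478 and 2232 were called on long NCD, 2641 and 2097 at week 0, and 58.5% and 62.4% of the week 0 genes remained. Genes under about 1 CPM lie near the floor of 3 counts, and no fold was given for them.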
